A study of Mus musculus with 16 samples.

Results

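The genes of major histocompatibility complex (MHC) class II antigen presentation were followed in bulk RNA from mouse striatum after a local injury. They were chosen by their place in the pathway, with earlier results of these data known. The 10 genes are Cd74, H2-Aa, H2-Ab1, H2-Eb1, H2-DMa, H2-DMb1, Ciita, Ctss, Cd86 and Rfx5. Of these, 8 are among the 19457 genes of the count table and all 8 passed the low-count filter, with which 18813 genes were tested. Ciita and H2-Eb1 are not analysed here, since the table lists genes that have counts in all 16 libraries and neither is among them. The animals were GS mice, read as carriers of the LRRK2 G2019S change named in the series title, and wild-type (WT) mice, and the labels name no promoter, strain, sex or age for either genotype. Each genotype was sampled intact and at 6 h, 3 d and 15 d after a unilateral striatal injection, 0.8 µl of ATP at 500 mM. The mice were under tribromoethanol for it. ATP is a molecule that damaged cells release. Each of the 8 groups has 2 libraries that the labels call biological replicates. The intact groups are called only that, so an injection of vehicle is not part of the comparison, and the needle track and the ATP cannot be told apart.

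MHC class II molecules carry peptides from endosomes to the cell surface, where CD4+ T cells read them. The α and β chains (H2-Aa and H2-Ab1) assemble in the endoplasmic reticulum with the invariant chain (Cd74), which fills the groove until cathepsin S (Ctss) and other proteases trim it to a short fragment. H2-DM, made of H2-DMa and H2-DMb1 or H2-DMb2, then exchanges that fragment for peptide, and H2-O, made of H2-Oa and H2-Ob, restrains H2-DM. Transcription runs through an enhanceosome of RFX (with Rfx5), NF-Y and CREB on the X and Y boxes of the promoters, which the coactivator Ciita, induced by interferon gamma, switches on. In the healthy brain class II is low, and microglia, border macrophages and incoming leukocytes are the cells known to raise it after injury. Cd86 gives the costimulatory signal through CD28 on the T cell.

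The promoters of 3 members are shown because these genes stand for a chain, a loading subunit and a protease. Each of them was called higher than intact at 3 d and 15 d in both genotypes. Each is the RefSeq window of GRCm38.p6 from 250 bases before to 50 bases after the start, written 5′ to 3′ on the gene's strand, with motif matches in capitals. RefSeq windows were matched for 6 of the 10 members, 5 of them in the count table.
H2-Aa (chr17:34287774-34288073, minus strand): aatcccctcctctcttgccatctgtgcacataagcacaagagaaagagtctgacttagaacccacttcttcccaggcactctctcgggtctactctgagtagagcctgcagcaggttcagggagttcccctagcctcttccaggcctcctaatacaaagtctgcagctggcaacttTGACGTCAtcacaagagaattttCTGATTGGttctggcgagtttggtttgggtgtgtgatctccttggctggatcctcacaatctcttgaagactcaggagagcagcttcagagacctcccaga
H2-DMb1 (chr17:34152941-34153240, plus strand): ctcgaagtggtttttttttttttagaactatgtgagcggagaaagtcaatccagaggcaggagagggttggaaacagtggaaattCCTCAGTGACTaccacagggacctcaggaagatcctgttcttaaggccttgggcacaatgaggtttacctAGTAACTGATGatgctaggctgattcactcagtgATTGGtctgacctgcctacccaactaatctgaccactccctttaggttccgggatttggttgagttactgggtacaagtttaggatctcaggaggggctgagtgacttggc
Ctss (chr3:95526536-95526835, plus strand): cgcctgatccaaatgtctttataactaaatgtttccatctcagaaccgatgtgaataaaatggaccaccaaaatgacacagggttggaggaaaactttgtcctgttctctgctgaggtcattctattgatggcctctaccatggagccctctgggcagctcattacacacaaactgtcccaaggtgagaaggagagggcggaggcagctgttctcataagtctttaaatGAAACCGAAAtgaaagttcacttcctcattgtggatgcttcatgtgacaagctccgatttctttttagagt
In H2-Aa the capitals mark the longer Y box CTGATTGG, which contains the core ATTGG, at position -51 from the start, and the cAMP response element TGACGTCA, the form of the X2 box, at position -74. In H2-DMb1 they mark the core ATTGG at position -61, the X box match AGTAACTGATG at position -95, and a second X box match, CCTCAGTGACT, which reads on the opposite strand at position -165. In Ctss they mark GAAACCGAAA at position -21, a match to the core of the interferon-stimulated response element, searched as GAAA, any 2 bases and GAAA. The X box was searched as AG, any 2 bases, AC, any base, GA, any base and G. Both strands were searched in 32851 promoter windows of the same length. The core ATTGG was in 37.4% of them, CTGATTGG in 4.1%, the X box in 5.33%, and the gamma-activated site TTCNNNGAA, with no match in these 3 windows, in 8.3%. TGACGTCA was in 1.79% and the interferon-stimulated core in 3.44%, and these motifs were added to the search after the windows had been read. Windows of members that were not called higher at 15 d also held the core ATTGG. Rfx5, which was lower at the later stages, had it on the opposite strand at positions -113 and -54. H2-DMa, which was not among the 6 genes that rose in both genotypes, had it at position -198 in a window. Ctss, which rose, had neither the core nor the X box. A link between motif and rise was not tested. The matches are letters in a window and no binding was measured.

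The libraries held 49220578 to 63948110 counts each. Levels are given as CPM (counts relative to the TMM-scaled library size), for replicate 1 and then replicate 2. Differences are log2 fold changes ± standard error from edgeR's quasi-likelihood test over all 16 libraries, called at a Benjamini-Hochberg adjusted p under 0.05. The striatal marker Drd1 was between 185 and 311 CPM in all libraries. Markers of neighbouring tissue varied more, with the cortical Slc17a7 at 4.47 to 136 CPM and the choroid plexus Ttr at 21.7 to 359 CPM. Summed choroid plexus markers were 53.4 to 108 CPM in WT intact and 190 to 273 CPM in WT 15 d libraries. In GS mice they were 87.4 to 410 CPM intact and 59.6 to 176 CPM at 15 d. The part of either tissue in the members' values was not tested. Replicates of every group differed by more than counting noise (χ² per degree of freedom 9.72 to 32.6 over genes). In bulk tissue, more cells of a type and more RNA per cell cannot be told apart.

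By 15 d after ATP, 6 of the 8 genes had risen in both genotypes: the invariant chain, both class II chains, H2-DMb1, Ctss and Cd86. In GS mice at 15 d 6 were higher and 1 lower than in GS intact mice, where 37.1% of all genes tested were called, 19.4% higher and 17.6% lower. In WT mice 6 were likewise higher and 1 lower than intact, against 25.4% of all genes, 14.2% higher and 11.2% lower. The median log2 fold change of the 8 genes was 3.22 in GS and 2.95 in WT mice, beside medians of -0.01 and -0.02 over all genes tested. The same 6 genes were already higher at 3 d in both genotypes. In GS mice at 3 d 6 members were higher and 1 lower, against 35.1% of all genes, 18.6% higher and 16.4% lower. In WT mice at 3 d 6 were higher and 2 lower, against 27.4% of all genes, 14.7% higher and 12.7% lower. At 6 h none of the 6 passed the edgeR test in either genotype, with H2-DMb1 and Cd86 in GS mice under an unadjusted p of 0.05 and 0 of the 6 in WT mice.

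**Figure D1:**
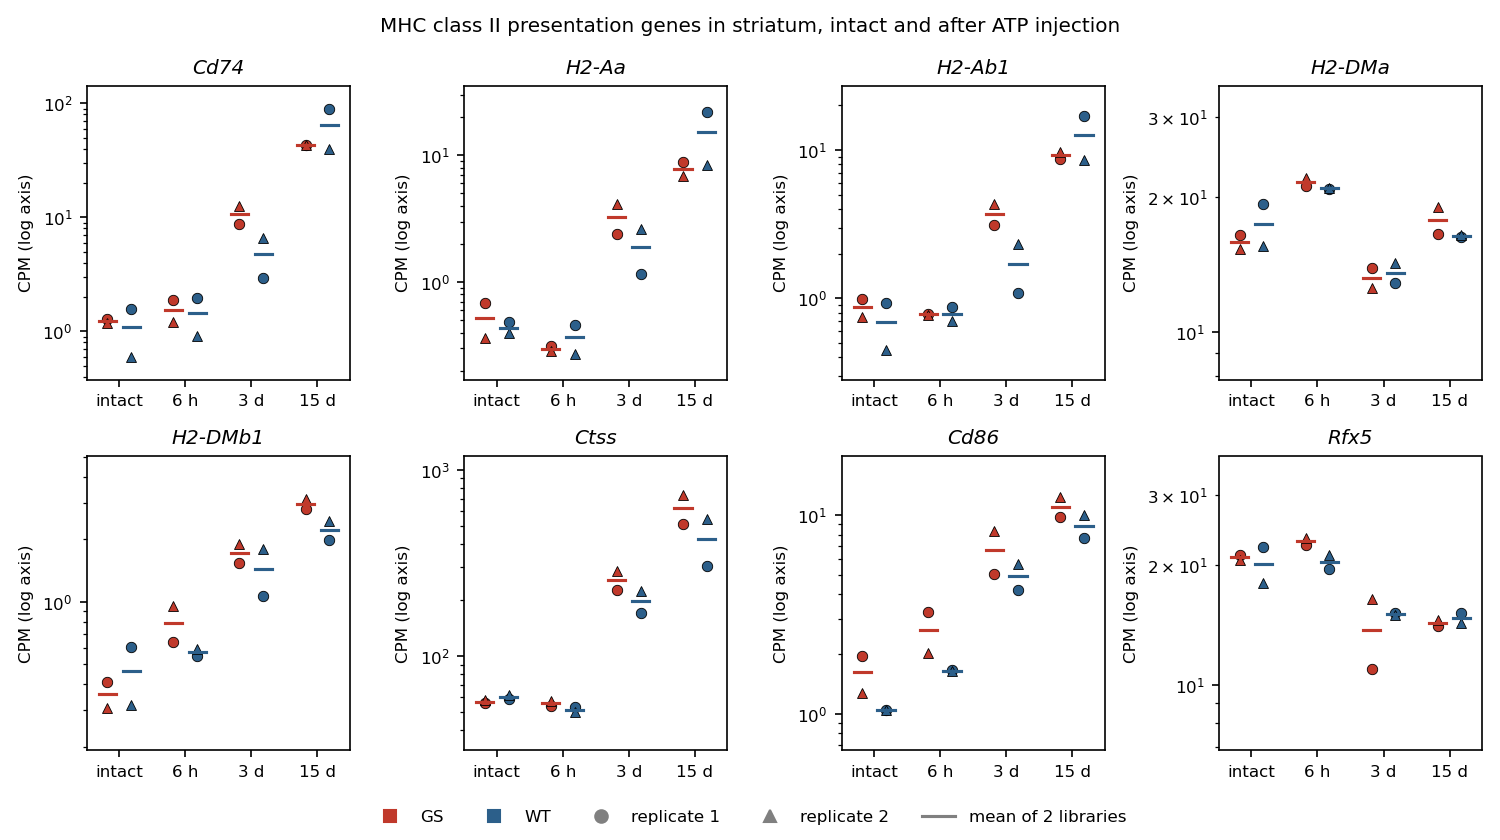
TMM-scaled CPM (log axis) of the 8 measured class II presentation genes in each of the 16 libraries, by stage and genotype. Cd74, H2-Aa, H2-Ab1, H2-DMb1, Ctss and Cd86 stand higher at 3 d and 15 d than in intact striatum in both genotypes, Rfx5 stands lower, and H2-DMa is highest at 6 h.

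Cd74, NCBI Gene 16149, on chromosome 18 (GRCm38.p6, 60803849 to 60812652), encodes the invariant chain and had the largest rise of the 8 between intact and 15 d in both genotypes. In GS mice, intact libraries had 1.28 and 1.18 CPM, 6 h libraries 1.87 and 1.20, 3 d libraries 8.70 and 12.7 and 15 d libraries 42.8 and 43.5 CPM. In WT mice, intact libraries had 1.59 and 0.601 CPM, 6 h libraries 1.96 and 0.921, 3 d libraries 2.91 and 6.56 and 15 d libraries 88.9 and 39.5 CPM. The intact and 6 h libraries of both genotypes overlapped, both 3 d groups stood above them, and both 15 d groups stood above those, with WT replicate 1 above the other 3 libraries of 15 d. The rise from intact to 15 d was 5.13 ± 0.50 in GS mice (35.0-fold, edgeR adjusted p = 5.34e-06, 95% interval of the log2 value 4.07 to 6.19) and 5.86 ± 0.51 in WT mice (58.2-fold, adjusted p = 9.17e-06, interval 4.77 to 6.96). At 3 d it was 3.12 ± 0.49 in GS mice (adjusted p = 2.63e-04) and 2.11 ± 0.52 in WT mice (adjusted p = 0.00808).

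H2-Aa, NCBI Gene 14960 (chromosome 17, 34282744 to 34287823, GRCm38.p6), encodes the class II α chain of the H2-A molecule. Intact GS libraries held 0.684 and 0.359 CPM. The 6 h, 3 d and 15 d libraries of GS mice followed with 0.312 and 0.287, then 2.40 and 4.14, then 8.89 and 6.83 CPM. Intact WT libraries held 0.481 and 0.394 CPM. The 6 h, 3 d and 15 d libraries of WT mice followed with 0.460 and 0.271, then 1.15 and 2.62, then 22.0 and 8.30 CPM. These are low levels, 15 to 40 reads per library in intact and 6 h striatum, but every 3 d library was above every intact and 6 h library, and every 15 d library above every 3 d library. The rise to 15 d was 3.91 ± 0.51 in GS mice (adjusted p = 5.50e-05) and 5.11 ± 0.53 in WT mice (adjusted p = 3.08e-05), from edgeR, which is 15.0-fold and 34.4-fold. At 3 d the log2 fold change was 2.64 ± 0.52 in GS mice (edgeR adjusted p = 0.00125) and 2.11 ± 0.54 in WT mice (adjusted p = 0.0108).

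H2-Ab1, NCBI Gene 14961, the partner β chain, lies beside H2-Aa on chromosome 17 (34263227 to 34269418, GRCm38.p6). The GS libraries stood at 0.992 and 0.753 CPM intact, 0.787 and 0.772 at 6 h, 3.10 and 4.34 at 3 d, and 8.70 and 9.71 CPM at 15 d. The WT libraries stood at 0.926 and 0.451 CPM intact, 0.870 and 0.704 at 6 h, 1.08 and 2.31 at 3 d, and 16.9 and 8.52 CPM at 15 d. The 3 d libraries of GS mice were all above those of WT mice, a difference that did not pass (edgeR adjusted p = 0.55). The 15 d libraries of the genotypes overlapped. The rise to 15 d was 3.40 ± 0.40 in GS mice (10.5-fold, edgeR adjusted p = 2.26e-05) and 4.20 ± 0.41 in WT mice (18.4-fold, adjusted p = 2.33e-05). At 3 d the log2 fold change was 2.09 ± 0.40 in GS mice (edgeR adjusted p = 0.00104) and 1.30 ± 0.42 in WT mice (adjusted p = 0.0346).

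The 15 d calls of Cd74, H2-Aa and H2-Ab1 held in both genotypes under each of the 26 alternative settings run, and so did the 3 d calls in GS mice. In WT mice the 3 d calls of all 3 were lost without WT intact replicate 2 (adjusted p = 0.0768, 0.0673 and 0.228) and without WT 3 d replicate 2 (adjusted p = 0.108, 0.136 and 0.38), and that of H2-Aa also without WT intact replicate 1 (adjusted p = 0.0646). All 3 were also lost with limma-voom (adjusted p = 0.0878, 0.126 and 0.149), and H2-Ab1 with only the groups of the contrast (adjusted p = 0.114). The log2 fold change of Cd74 at 3 d in WT mice was 1.59 without WT intact replicate 2 and 1.40 without WT 3 d replicate 2, and that of H2-Ab1 0.88 and 0.64. WT 3 d replicate 1 had the lower level of all 3 genes and also the lower summed microglial markers of its pair.

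Invariant chain and β chain did not keep the same proportion through the stages. The ratio of Cd74 counts to H2-Ab1 counts was 1.29 and 1.57 in GS intact, 2.38 and 1.56 in GS 6 h, 2.81 and 2.93 in GS 3 d and 4.92 and 4.48 in GS 15 d libraries. In WT mice it was 1.71 and 1.33 intact, 2.25 and 1.31 at 6 h, 2.70 and 2.84 at 3 d and 5.25 and 4.63 at 15 d. All 4 libraries of 3 d were above the 8 of intact and 6 h, and all 4 of 15 d above those of 3 d. In WT 15 d replicate 1, where both transcripts were highest, the ratio was within 1 unit of the other 15 d libraries. This ratio was not tested, since it was formed after the values had been seen.

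Peptide loading is catalysed by H2-DM, and the values counted for its subunits H2-DMa and H2-DMb1 behaved differently from each other. H2-DMb1, NCBI Gene 14999 (chromosome 17, 34153191 to 34160229, GRCm38.p6), encodes the β subunit. In GS mice, intact libraries had 0.410 and 0.308 CPM, 6 h libraries 0.639 and 0.951, 3 d libraries 1.53 and 1.90 and 15 d libraries 2.80 and 3.14 CPM. In WT mice, intact libraries had 0.606 and 0.319 CPM, 6 h libraries 0.546 and 0.596, 3 d libraries 1.06 and 1.80 and 15 d libraries 1.99 and 2.44 CPM. Both GS libraries at 6 h were above both GS intact libraries, and from 3 d on every library was above all intact ones. The rise to 15 d was 3.04 ± 0.35 in GS mice (8.22-fold, edgeR adjusted p = 2.09e-05) and 2.25 ± 0.35 in WT mice (4.75-fold, adjusted p = 4.18e-04). The 3 d values were 2.25 ± 0.36 in GS mice (edgeR adjusted p = 2.73e-04) and 1.62 ± 0.35 in WT mice (adjusted p = 0.00362). Some reads may be shared with the neighbouring copy H2-DMb2, since the longest protein-coding transcripts of the pair are 87.3% identical over 1157 aligned columns with an identical run of 221 bases.

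H2-DMa, NCBI Gene 14998 (chromosome 17, 34119693 to 34139101, GRCm38.p6), encodes the α subunit and was not among the genes that rose at 15 d. Intact GS libraries held 16.4 and 15.3 CPM. The 6 h, 3 d and 15 d libraries of GS mice followed with 21.1 and 22.0, then 13.9 and 12.5, then 16.6 and 19.0 CPM. Intact WT libraries held 19.3 and 15.5 CPM. The 6 h, 3 d and 15 d libraries of WT mice followed with 20.9 and 20.9, then 12.9 and 14.3, then 16.3 and 16.5 CPM. In both genotypes 6 h was the highest and 3 d the lowest stage, without overlap between those stages. At 6 h it was the only member called, in GS mice, at 0.44 ± 0.11 (1.36-fold, edgeR adjusted p = 0.0171), and that call was lost without any of the 4 libraries of the comparison (adjusted p = 0.0508 to 0.142). At 3 d it was 0.27 lower in GS mice (-0.27 ± 0.11, edgeR adjusted p = 0.0796, not called) and fell in WT mice (-0.36 ± 0.11, adjusted p = 0.0272). The WT call was lost in 5 of 26 alternatives. These were without WT intact replicate 1 or WT 3 d replicate 1 (adjusted p = 0.322 and 0.162), with the 3 most cortical WT libraries by Slc17a7 dropped (0.373), with the cortical covariate (0.16) and with only the groups of the contrast (0.114). At 15 d the log2 fold change was 0.16 ± 0.11 in GS mice (95% interval -0.08 to 0.40) and -0.09 ± 0.11 in WT mice (interval -0.33 to 0.15).

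The annotated span of H2-DMa overlaps Brd2, a bromodomain gene on the opposite strand with 169 to 204 CPM, and whether the counting used strand was not given in these sources. Reads of the overlap therefore cannot be assigned to one gene. Brd2 itself passed the edgeR test in none of the 6 comparisons with intact striatum, with log2 fold changes of 0.16 ± 0.06 at 6 h in GS mice (adjusted p = 0.0745) and -0.09 ± 0.06 at 3 d in WT mice (adjusted p = 0.247). Its highest group means were also those of 6 h, and the log2 CPM of H2-DMa and Brd2 correlated at r = 0.928 (Pearson) over the 16 libraries. H2-DMa and H2-DMb1 correlated at -0.245 over the same libraries. The part of Brd2 in the H2-DMa values was not tested.

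The other measured class II genes are H2-DMb2 and the subunits of H2-O, the inhibitor of H2-DM known mainly from B cells and thymic epithelium. All 3 rose by 15 d in both genotypes, and at 3 d all 3 rose in GS mice and 1, H2-Ob, in WT mice. H2-Ob had 0.410 and 0.137 CPM intact and 5.70 and 8.60 CPM at 15 d in GS mice, and 0.374 and 0.545 CPM intact and 5.24 and 6.55 CPM at 15 d in WT mice. Its 15 d rise was 4.70 ± 0.39 in GS mice (25.9-fold, edgeR adjusted p = 2.60e-06) and 3.68 ± 0.37 in WT mice (12.8-fold, adjusted p = 2.59e-05). H2-Oa rose by 3.37 ± 0.48 in GS mice (adjusted p = 9.72e-05) and 2.33 ± 0.45 in WT mice (adjusted p = 0.00186, edgeR). H2-DMb2 rose by 2.49 ± 0.35 in GS mice (edgeR adjusted p = 1.02e-04) and 1.24 ± 0.33 in WT mice (adjusted p = 0.0144), the last lost in 4 of 26 alternatives, among them without WT intact replicate 1 or WT 15 d replicate 1. The WT 15 d call of H2-Oa was lost with the choroid plexus covariate (adjusted p = 0.0807). At 6 h H2-DMb2 was called in GS mice at 1.31 ± 0.36 (edgeR adjusted p = 0.0253), with 1.59 and 2.12 CPM at 6 h and 0.992 and 0.496 CPM intact, a call lost in 4 of 26 alternatives, among them without GS intact replicate 2 or either GS 6 h library.

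Ctss, NCBI Gene 13040 (chromosome 3, 95526786 to 95556405, GRCm38.p6), encodes cathepsin S, the endosomal protease that makes the last cuts in the invariant chain. The GS libraries stood at 55.8 and 57.9 CPM intact, 53.9 and 57.4 at 6 h, 225 and 284 at 3 d, and 512 and 735 CPM at 15 d. The WT libraries stood at 58.6 and 61.4 CPM intact, 53.4 and 49.8 at 6 h, 170.5 and 223 at 3 d, and 304 and 545 CPM at 15 d. No 3 d library overlapped an earlier one and no 15 d library overlapped a 3 d one. The rise to 15 d was 3.46 ± 0.24 in GS mice (11.0-fold, edgeR adjusted p = 8.00e-07) and 2.82 ± 0.23 in WT mice (7.08-fold, adjusted p = 6.76e-06). At 3 d it was 2.16 ± 0.23 in GS mice (edgeR adjusted p = 1.39e-05) and 1.71 ± 0.22 in WT mice (adjusted p = 1.31e-04). These 4 calls held under all 26 alternatives.

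Scaled for length as mean CPM per kb of exon (GENCODE M21), Ctss was the most abundant member in both genotypes at 15 d and intact. At 15 d Ctss had 459 CPM per kb in GS and 313 in WT mice, and Cd74 followed with 25.7 in GS and 38.2 in WT mice. In intact striatum Ctss had 41.9 CPM per kb in GS and 44.2 in WT mice, followed by H2-DMa (4.61 in GS and 5.05 in WT) and Rfx5 (3.81 in GS and 3.67 in WT), with Cd74 at 0.733 in GS and 0.651 in WT. H2-Aa was the least abundant member per kb in both intact groups.

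Of 12 other genes of endosomal processing, all in the table, 11 rose at 15 d in GS mice and 11 in WT mice, with medians of 1.48 and 1.19, and none fell. At 3 d 11 rose in GS and 10 in WT mice. The largest 15 d rises in GS mice were those of Ctsd, an aspartic protease (3.43 ± 0.32), Ctsh, an aminopeptidase (3.34 ± 0.31), Ctsc, which activates serine proteases (2.68 ± 0.23), and Ctsz (2.33 ± 0.26). In WT mice at 15 d they were Ctsd (2.93 ± 0.31), Ctsh (2.67 ± 0.30), Ctsc (2.29 ± 0.23) and Ifi30 (2.06 ± 0.26), the thiol reductase that opens disulfide bonds of antigens. Cst3, the secreted inhibitor cystatin C, was not called at 3 d and rose at 15 d in GS (1.03 ± 0.13) and WT mice (1.06 ± 0.13). Sppl2a, the protease that clears the membrane stub of the invariant chain, rose at 3 d in GS (0.40 ± 0.07) and WT mice (0.25 ± 0.07) and was not called at 15 d in either.

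Cd86, NCBI Gene 12524 (chromosome 16, 36568956 to 36666158, GRCm38.p6), is a costimulatory ligand of CD28 and CTLA-4. In GS mice, intact libraries had 1.97 and 1.28 CPM, 6 h libraries 3.28 and 2.03, 3 d libraries 5.06 and 8.33 and 15 d libraries 9.77 and 12.3 CPM. In WT mice, intact libraries had 1.05 and 1.05 CPM, 6 h libraries 1.67 and 1.64, 3 d libraries 4.20 and 5.67 and 15 d libraries 7.72 and 9.97 CPM. At 6 h the libraries of each genotype stood above their intact ones, but the differences of 0.71 ± 0.30 in GS mice (edgeR adjusted p = 0.135) and 0.66 ± 0.33 in WT mice (adjusted p = 0.277) did not pass. At 3 d the rise was 2.04 ± 0.29 in GS mice (edgeR adjusted p = 1.34e-04) and 2.23 ± 0.31 in WT mice (adjusted p = 1.87e-04). At 15 d it was 2.77 ± 0.30 in GS mice (6.80-fold, edgeR adjusted p = 1.14e-05) and 3.07 ± 0.31 in WT mice (8.39-fold, adjusted p = 2.62e-05).

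Of 8 measured genes of costimulation and checkpoint signals beside Cd86, 6 rose at 15 d in both GS and WT mice, with medians of 1.98 and 1.42, and none fell. At 3 d 7 rose in GS and 6 in WT mice. Cd83, a surface protein that slows the removal of class II and Cd86 from the membrane, rose by 3.76 ± 0.32 in GS mice (edgeR adjusted p = 2.79e-06) and 2.94 ± 0.31 in WT mice at 15 d (adjusted p = 3.08e-05). The adhesion ligand Icam1 rose by 2.53 ± 0.27 in GS and 2.10 ± 0.27 in WT mice, and the inhibitory ligand Cd274 (PD-L1) by 2.03 ± 0.26 in GS and 1.91 ± 0.26 in WT mice. Lgals9, a galectin, rose by 2.26 ± 0.37 in GS and 1.58 ± 0.36 in WT mice, the WT call being lost without WT intact replicate 2 or WT 15 d replicate 2. Cd80, the other CD28 ligand of the B7 pair, was called at 3 d in both genotypes (1.17 ± 0.39 in GS and 1.21 ± 0.41 in WT) and not at 15 d (1.02 ± 0.40 in GS and 1.14 ± 0.42 in WT). Its 3 d calls were lost in 7 of 26 alternatives in GS and 9 in WT mice. Cd40, the receptor of the T cell ligand CD40L, was not called at 6 h, 3 d or 15 d in GS mice (edgeR adjusted p = 0.267 to 0.957) or WT mice (0.381 to 0.86).

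Rfx5, NCBI Gene 53970 (chromosome 3, 94950689 to 94961561, GRCm38.p6), encodes the DNA-binding subunit of RFX. It was the one member called lower at 3 d and at 15 d in both genotypes. Intact GS libraries held 21.3 and 20.6 CPM. The 6 h, 3 d and 15 d libraries of GS mice followed with 22.5 and 23.4, then 10.9 and 16.5, then 14.0 and 14.6 CPM. Intact WT libraries held 22.3 and 18.1 CPM. The 6 h, 3 d and 15 d libraries of WT mice followed with 19.6 and 21.2, then 15.2 and 14.9, then 15.2 and 14.3 CPM. Every 3 d and 15 d library was below every intact and 6 h library. Rfx5 fell by 0.61 on the log2 scale at 3 d in GS mice (SE 0.15, edgeR adjusted p = 0.00489) and by 0.42 in WT mice (SE 0.15, adjusted p = 0.0442). At 15 d it fell by 0.55 in GS mice (SE 0.15, edgeR adjusted p = 0.00887) and by 0.45 in WT mice (SE 0.15, adjusted p = 0.0356). The GS 3 d call held in all 26 alternatives and the GS 15 d call in 25, lost without GS 15 d replicate 1 (adjusted p = 0.056). The WT calls were lost in 16 alternatives at 3 d and 6 at 15 d. Without WT intact replicate 1, the WT library with the highest Slc17a7 level, the WT values were -0.26 at 3 d and -0.29 at 15 d, and after adjustment for the cortical marker score they were -0.19 at 3 d and -0.35 at 15 d. The overlapping gene B230398E01Rik had 0.02 to 0.41 CPM.

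The other RFX subunits, Rfxap and Rfxank, were not called against intact striatum in either genotype, with edgeR adjusted p of 0.0759 to 0.884. Of the 11 listed partners of the enhanceosome, 5 rose and 1 fell at 15 d in GS mice and 3 rose in WT mice, with medians of 0.09 in GS and -0.08 in WT mice. The 3 of 11 in WT mice stand near the 25.4% called among all genes, and in GS mice 37.1% of all genes were called. Nfya, a subunit of the Y box factor NF-Y, rose by 0.77 ± 0.12 in GS mice (edgeR adjusted p = 2.25e-04) and 0.56 ± 0.12 in WT mice at 15 d (adjusted p = 0.00415), the WT call being lost without WT intact replicate 1 or WT 15 d replicate 2. Creb1 rose by 0.41 ± 0.07 in GS and 0.25 ± 0.07 in WT mice, the WT call of Creb1 being lost in 5 of 26 alternatives. The acetyltransferase Ep300 rose by 0.31 ± 0.06 in GS and 0.33 ± 0.06 in WT mice. At 3 d Rfx1, another RFX family member, fell by 0.33 in GS mice (SE 0.09) and by 0.31 in WT mice (SE 0.09), the WT call being lost in 6 of 26 alternatives, and it was not called at 15 d.

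The coactivator Ciita is not analysed here, nor is Ifng. Of 13 measured genes of the interferon gamma pathway, 11 rose at 15 d in GS mice and 10 in WT mice, with medians of 1.07 and 1.19, and none fell. At 3 d 11 rose in each genotype, with medians of 1.43 in GS and 1.16 in WT mice. Gbp2, an interferon-induced guanylate-binding protein, rose at 15 d by 2.68 ± 0.31 in GS and 3.07 ± 0.31 in WT mice, and Irf8, a myeloid interferon regulatory factor, by 2.56 ± 0.23 in GS and 2.22 ± 0.23 in WT mice. The interferon-induced GTPases Iigp1 and Igtp rose by 1.78 ± 0.44 and 1.70 ± 0.30 in GS mice and by 2.85 ± 0.42 and 2.50 ± 0.30 in WT mice at 15 d, with the GS call of Iigp1 lost without GS intact replicate 2. Nlrc5, which does for MHC class I genes what Ciita does for class II, rose in both genotypes at 3 stages. Its log2 fold change was 2.18 ± 0.40 in GS and 1.77 ± 0.40 in WT mice at 6 h, 3.46 ± 0.39 in GS and 2.94 ± 0.39 in WT mice at 3 d, and 2.76 ± 0.39 in GS and 3.03 ± 0.39 in WT mice at 15 d. The WT call at 6 h was lost in 6 of 26 alternatives, among them without any of its 4 libraries.

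Of the signals known to hold class II down, Tgfb1 and the interleukin 10 receptor genes Il10ra and Il10rb rose with the members. At 15 d Tgfb1 rose by 2.40 ± 0.29 in GS and 2.21 ± 0.30 in WT mice, Il10rb by 1.82 ± 0.22 in GS and 1.63 ± 0.23 in WT mice, and Il10ra by 1.30 ± 0.20 in GS and 1.32 ± 0.21 in WT mice. Of 10 measured genes of class II traffic and turnover, 4 rose and 2 fell at 15 d in GS mice and 3 rose and 1 fell in WT mice, with medians of 0.16 in GS and 0.09 in WT mice, beside 37.1% of all genes called in GS and 25.4% in WT mice. Among them the tetraspanin Cd63, found on the vesicles where class II is loaded, rose by 2.05 ± 0.20 in GS and 1.70 ± 0.20 in WT mice. March1, the ubiquitin ligase that removes class II and Cd86 from the surface, rose by 0.89 ± 0.12 in GS mice (edgeR adjusted p = 5.84e-05) and was 0.31 ± 0.12 higher in WT mice, which did not pass (adjusted p = 0.0644).

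**Figure D2:**
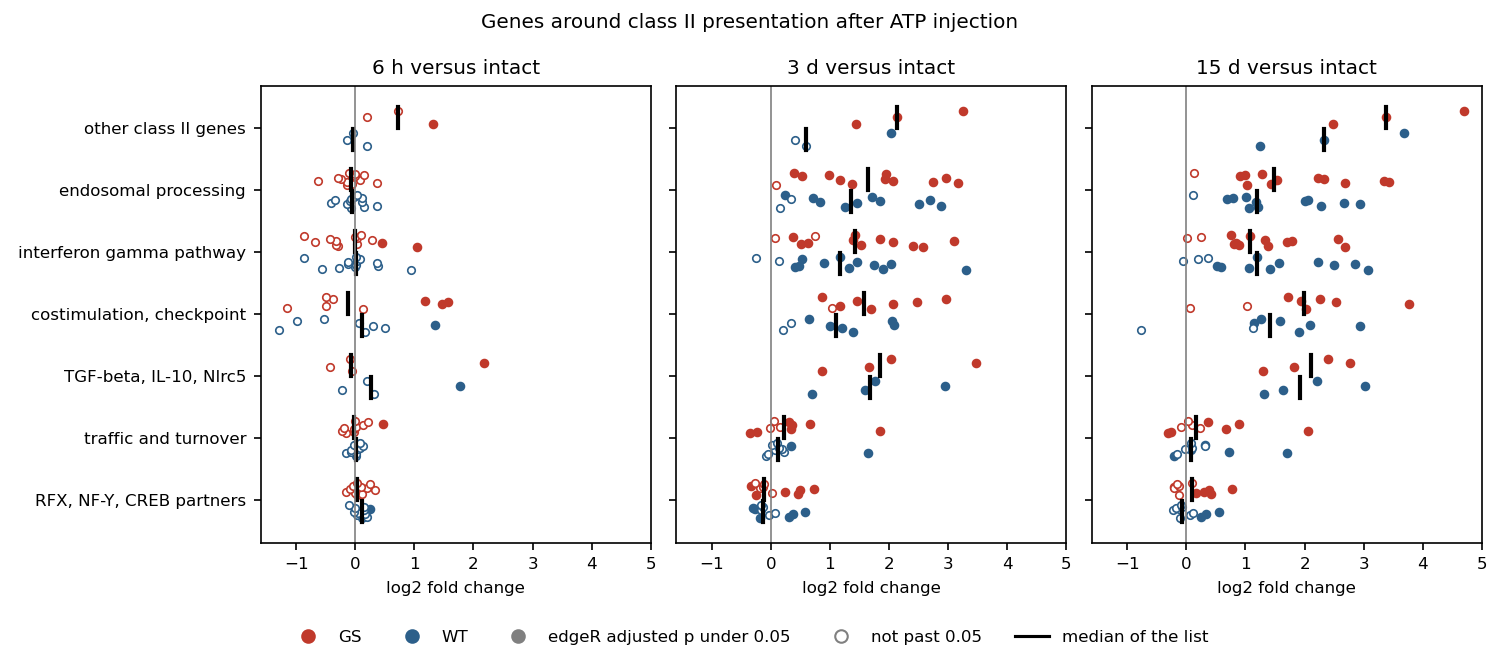
Log2 fold change against intact striatum at 6 h, 3 d and 15 d (panels) for each measured gene of the pathway lists, in GS and WT mice, filled where the edgeR adjusted p was under 0.05, with a bar at the median of each list. Genes of endosomal processing, the other class II genes and the interferon gamma pathway stand mainly above 0 at 3 d and 15 d, and the enhanceosome partners stand around 0.

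In order of time, 6 h was the stage at which members were least changed. At 6 h 1 of 8 was called in GS mice, against 13.8% of all genes tested, 7.47% higher and 6.37% lower. In WT mice 0 of 8 were called, against 4.09% of all genes, 2.54% higher and 1.55% lower. In WT mice at 6 h 1 member was under an unadjusted p of 0.05 by edgeR, and DESeq2 and limma-voom called 0. The nearest other member in GS mice was H2-DMb1, at 1.14 ± 0.37 (edgeR adjusted p = 0.0557), which passed in 5 of the 26 alternatives. Cd74 was 0.33 ± 0.57 in GS mice (95% interval -0.89 to 1.54) and 0.40 ± 0.59 in WT mice (interval -0.86 to 1.66), and Ctss was -0.03 ± 0.22 in GS mice and -0.22 ± 0.22 in WT mice. At this stage Icam1 was called in both genotypes (1.57 ± 0.27 in GS and 1.35 ± 0.27 in WT) and Cd83 (1.47 ± 0.31) and Icosl, the ligand of ICOS (1.18 ± 0.21), in GS mice. The WT call of Icam1 was lost without any of its 4 libraries, and that of Cd83 without GS intact replicate 2 or GS 6 h replicate 1.

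Between 6 h and 3 d, 8 of the 8 members changed in GS mice, 6 higher and 2 lower, against 39.1% of all genes, 19.9% higher and 19.2% lower. In WT mice 7 did, 5 higher and 2 lower, against 30.3% of all genes, 15.9% higher and 14.3% lower. Over this step Cd74 rose by 2.79 ± 0.48 in GS mice and 1.72 ± 0.49 in WT mice, H2-Aa by 3.43 ± 0.56 in GS and 2.36 ± 0.55 in WT mice, and Ctss by 2.19 ± 0.23 in GS and 1.93 ± 0.23 in WT mice. H2-Ab1 rose by 2.25 ± 0.40 in GS mice and was 1.11 ± 0.41 higher in WT mice, which did not pass (edgeR adjusted p = 0.056). In WT mice the count fell to 4 without WT 6 h replicate 2 and to 3 without WT 3 d replicate 2.

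Between 3 d and 15 d, a step in which few genes of the table changed, the invariant chain and Ctss were among those called in both genotypes. In GS mice 2 of 8 members were called, both higher, against 2.1% of all genes, and in WT mice 4 of 8, all higher, against 3.2%. In GS mice Cd74 rose by 2.01 ± 0.40 (edgeR adjusted p = 0.0232) and Ctss by 1.29 ± 0.22 (adjusted p = 0.0119), while H2-Aa (1.27 ± 0.43, adjusted p = 0.123) and H2-Ab1 (1.31 ± 0.35, adjusted p = 0.065) did not pass. In WT mice Cd74 rose by 3.75 ± 0.43 (edgeR adjusted p = 9.31e-04), H2-Aa by 3.00 ± 0.45 (adjusted p = 0.00448), H2-Ab1 by 2.90 ± 0.37 (adjusted p = 0.00144) and Ctss by 1.11 ± 0.22 (adjusted p = 0.0158). In GS mice the Cd74 call was lost without any of its 4 libraries (adjusted p = 0.0653 to 0.17). The GS count went to 0 without GS 3 d replicate 2 or GS 15 d replicate 2 and to 1 without GS 3 d replicate 1 or GS 15 d replicate 1. Without WT 15 d replicate 1, the highest library, the WT step of Cd74 was still called, at 3.05 (edgeR adjusted p = 0.00399). With only the groups of the contrast the WT steps of Cd74, H2-Aa, H2-Ab1 and Ctss were not called (edgeR adjusted p = 0.0804, 0.122, 0.0944 and 0.2). That of Ctss was also lost without WT 3 d replicate 1 (0.133), without WT 15 d replicate 2 (0.144) and with the choroid plexus covariate (0.0781). Without WT 15 d replicate 2 its value was 0.63. H2-Ob rose in the same step by 1.45 ± 0.31 in GS mice (edgeR adjusted p = 0.0308) and 1.65 ± 0.32 in WT mice (adjusted p = 0.0141). Cd83 rose by 1.69 ± 0.28 in GS mice (edgeR adjusted p = 0.0115) and 1.94 ± 0.29 in WT mice (adjusted p = 0.00425).

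The share of the 15 d log2 rise already present at 3 d is given as a description, with no test of the shares themselves. Cd74, H2-Aa and H2-Ab1 had reached 60.8%, 67.5% and 61.5% of it in GS mice and 36.0%, 41.2% and 30.9% in WT mice. H2-DMb1, Ctss and Cd86 had reached 74.1%, 62.6% and 73.8% in GS mice and 72.3%, 60.7% and 72.6% in WT mice. The genotype difference in the step from 3 d to 15 d, a test added after these values had been seen, was -1.74 ± 0.56 for Cd74 (95% interval -2.95 to -0.53, unadjusted p = 0.00788 from edgeR), -1.73 ± 0.61 for H2-Aa (unadjusted p = 0.0125 from edgeR) and -1.59 ± 0.50 for H2-Ab1 (unadjusted p = 0.00645 from edgeR). All had an adjusted p of 0.999. Without WT 15 d replicate 1 the differences were -1.04 for Cd74, -0.86 for H2-Aa and -1.01 for H2-Ab1, and without WT 3 d replicate 2 they were -2.45, -2.45 and -2.25. For Ctss it was 0.18 ± 0.30, for Cd86 -0.11 ± 0.38 and for H2-DMb1 0.17 ± 0.43. Of the 8 members 0 passed the adjusted test and 3 were under an unadjusted p of 0.05, against 4.37% of all genes. DESeq2 and limma-voom called 0 members, and 0% of all genes were called by edgeR.

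**Figure D3:**
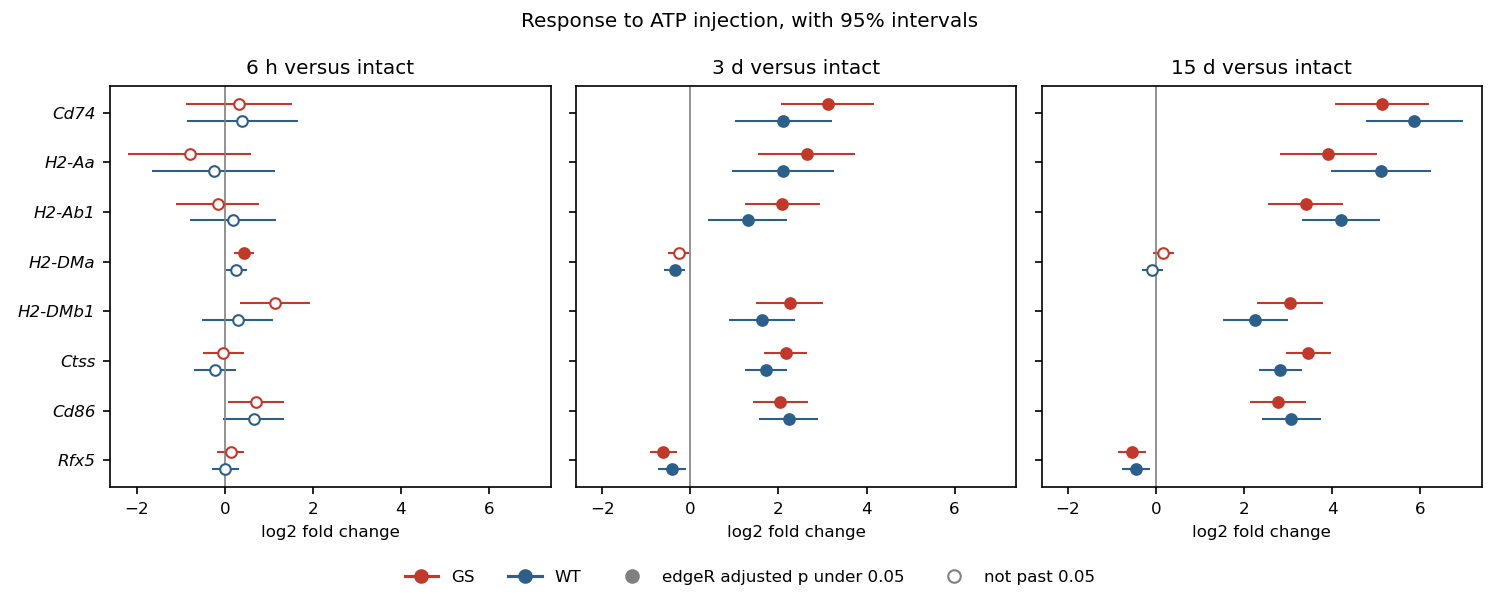
Log2 fold change against intact striatum (points, edgeR) with 95% intervals for the 8 members at 6 h, 3 d and 15 d in GS and WT mice. At 6 h most intervals include 0, at 15 d the intervals of Cd74, H2-Aa, H2-Ab1, H2-DMb1, Ctss and Cd86 lie above 0 in both genotypes, and those of Rfx5 lie below 0.

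Between genotypes at the same stage, no member passed the edgeR test, and nearly no gene of the table did. Of all genes, 0.0159% were called intact, 0.00532% at 6 h, 0.0106% at 3 d, 0.00532% at 15 d and 0.0106% averaged over the 4 stages. Members under an unadjusted p of 0.05 numbered 0 intact, 1 at 6 h, 2 at 3 d, 2 at 15 d and 2 in the average, and DESeq2 and limma-voom called 0 in each. Among all genes 10.9%, 6.83%, 8.25%, 4.86% and 9.87% were under that p in the same comparisons. At 3 d Cd74 was 1.17 ± 0.42 (log2, adjusted p = 0.55 from edgeR) and H2-Ab1 1.12 ± 0.37 higher in GS than in WT mice (adjusted p = 0.55), with no overlap of the GS libraries and the WT libraries in either gene. Without WT 3 d replicate 1 these differences were 0.70 and 0.68, and without WT 3 d replicate 2 they were 1.87 and 1.78. With 2 libraries per group, genotypes also stood apart where the difference was small. At 6 h this held for Ctss (0.11 ± 0.22, edgeR adjusted p = 0.961) and H2-DMa (0.05 ± 0.11, adjusted p = 0.97). At 15 d the GS minus WT difference was -0.57 ± 0.38 for Cd74 (95% interval -1.38 to 0.23), -0.95 ± 0.41 for H2-Aa (interval -1.83 to -0.07) and 0.55 ± 0.22 for Ctss (interval 0.09 to 1.02). Each had an edgeR adjusted p of 0.969 or above. Without WT 15 d replicate 1 the difference turned to 0.13 for Cd74 and, against -0.47 with all libraries, to 0.11 for H2-Ab1, and it was -0.08 for H2-Aa. In intact striatum Cd74 differed by 0.16 ± 0.60 (interval -1.13 to 1.45) and Ctss by -0.08 ± 0.22 (interval -0.55 to 0.39). Cd86 was higher in GS than in WT mice in the means of all 4 stages, by 0.52 ± 0.15 on average (interval 0.21 to 0.83, edgeR adjusted p = 0.339).

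The difference of the injury responses, GS minus WT, passed for 0 of the 8 members at 6 h, 3 d or 15 d by edgeR, where 0.0106%, 0% and 0% of all genes were called. At each of these stages 0 members were under an unadjusted p of 0.05, and DESeq2 and limma-voom called 0. For Cd74 it was -0.07 ± 0.82 at 6 h, 1.00 ± 0.73 at 3 d (95% interval -0.57 to 2.58) and -0.73 ± 0.71 at 15 d (interval -2.25 to 0.78). For Ctss it was 0.63 ± 0.31 at 15 d (interval -0.03 to 1.29, unadjusted p = 0.059 from edgeR). The interval of Cd74 at 6 h, -1.82 to 1.68, includes 2-fold differences in either direction.

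At 15 d the WT libraries differed in opposite directions for the invariant chain with both chains and for H2-DMb1, Ctss and Cd86. WT 15 d replicate 1 had 2.12 times the mean of the other 3 libraries of 15 d for Cd74, 2.74 times for H2-Aa and 1.88 times for H2-Ab1. The same library had 0.509 times that mean for Ctss, 0.722 for Cd86 and 0.714 for H2-DMb1, 0.754 for H2-Ob and 0.590 for Cd83. Nearer to that mean were H2-DMa (0.938 times), Rfx5 (1.06), H2-Oa (0.876) and H2-DMb2 (0.974). H2-DMb2 stood higher in this library than in its replicate, with 3.70 against 3.05 CPM. The ratio of Cd74 to Ctss counts was 0.0835 and 0.0591 in GS 15 d libraries, and 0.292 and 0.0724 in WT 15 d libraries. The same library had the highest level of the cortical marker Slc17a7 at 15 d, with 35.0 CPM against 10.5 in its replicate and 12.5 and 4.47 CPM in GS mice, and the lowest sum of the 13 microglial markers at 15 d, 1050 CPM. The part of either in the Cd74 values of this library was not tested.

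**Figure D4:**
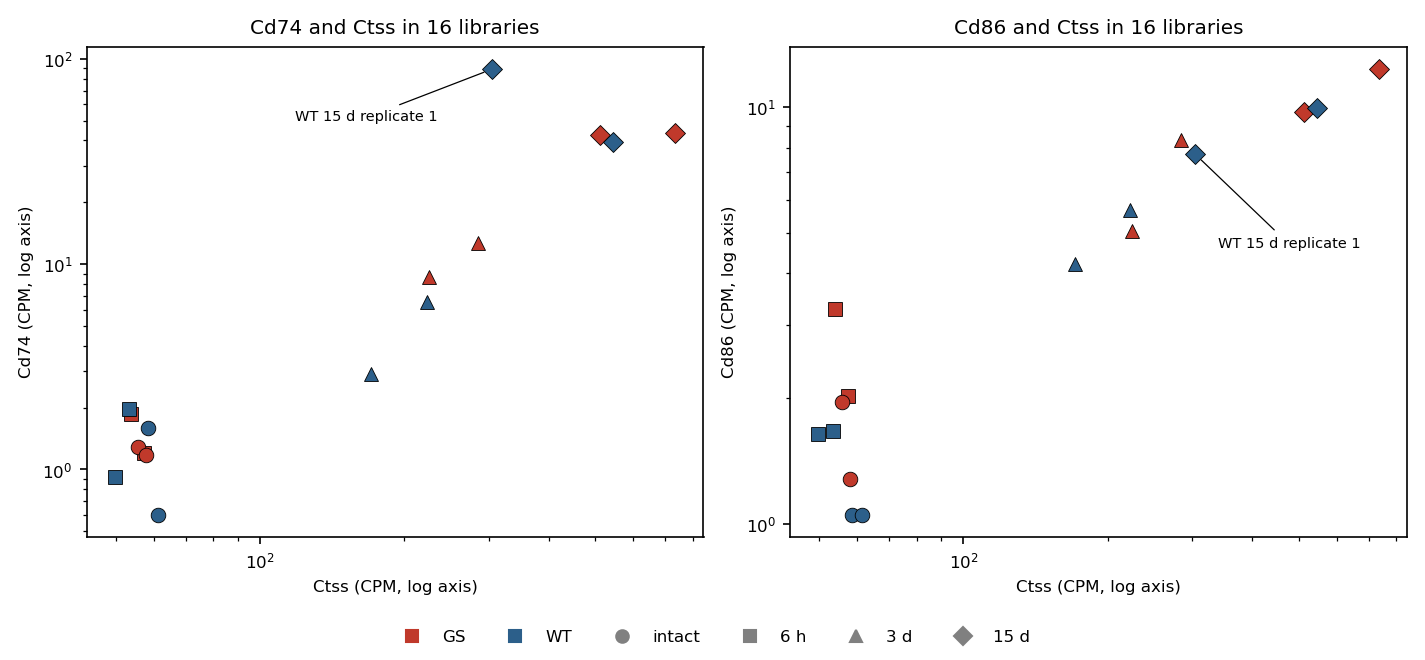
Each library's CPM of Cd74 (left) and of Cd86 (right) on the vertical axis against its CPM of Ctss on the horizontal axis, all log axes, with color for genotype and shape for stage. The intact and 6 h libraries lie together at low values, the 3 d and 15 d libraries lie higher on both axes, and WT 15 d replicate 1 has the highest Cd74, 88.9 CPM, with less Ctss, 304 CPM, than the other 15 d libraries.

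Markers of cells that can carry class II are given beside the members. The summed CPM of 13 microglial markers was 524 to 538 intact, 360 to 388 at 6 h, 1391 to 1688 at 3 d and 1560 to 2044 at 15 d in GS mice, and 509 to 515, 352 to 383, 895 to 1383 and 1050 to 1538 at the same stages in WT mice. Of these 13, 13 rose at 15 d in GS mice and 12 in WT mice, and at 6 h 6 fell in GS mice and 3 in WT mice. From 3 d to 15 d, where Cd74 rose in both genotypes, the microglial medians were 0.08 in GS and 0.17 in WT mice. The monocyte list had 7 of 10 markers in the table, without its defining marker Ccr2, and summed to 414 to 632 CPM at 15 d and 74.1 to 80.3 CPM intact in GS mice, and to 220 to 414 CPM at 15 d and 66.0 to 66.2 CPM intact in WT mice. Of the 7, 5 rose and 1 fell at 15 d in GS mice and 5 rose in WT mice, while from 3 d to 15 d 1 rose and 3 fell in GS mice and 1 rose and 1 fell in WT mice, with medians of -0.87 in GS and -0.95 in WT mice. Lyz2, which makes up most of the 15 d sum, had 286 and 470 CPM at 15 d and 2.62 and 2.24 CPM intact in GS mice, and 127 and 281 CPM at 15 d and 2.62 and 2.29 CPM intact in WT mice.

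Of the border macrophage list, 7 of 8 markers were in the table, and their sum was highest at 3 d, with 68.7 to 91.2 CPM in GS and 51.6 to 79.3 CPM in WT mice. At 15 d, the last stage sampled, the list summed to 30.9 to 43.9 CPM against 22.7 to 24.1 CPM intact in GS mice. In WT mice it summed to 24.7 to 35.5 CPM at 15 d against 23.7 to 24.0 CPM intact. Of the 7, 2 rose at 15 d in GS mice, and 1 rose and 1 fell in WT mice. Its defining marker Mrc1 was called at 3 d in GS (0.69 ± 0.16) and WT mice (0.81 ± 0.16) and not at 15 d, and the list's median from 3 d to 15 d was -0.60 in GS and -0.37 in WT mice. The dendritic cell list had 5 of 10 in the table and summed to 27.6 to 32.7 CPM in GS and 30.4 to 30.8 CPM in WT mice at 15 d, against 11.3 to 11.9 CPM in GS intact and 9.85 to 15.6 CPM in WT intact mice, but 1 of the 5 was called at 15 d in each genotype, with medians of 0.35 in GS and -0.04 in WT mice. Its defining marker Flt3 was at -0.33 ± 0.36 in GS and -0.89 ± 0.36 in WT mice at 15 d, not called. Lymphocyte lists were mostly outside the table: 1 of 8 B cell markers, Ighm, and 3 of 12 T cell markers, Cd4, Lck and Trac, were in it, and the defining markers Cd79a and Cd3e were not. Cd4 makes up nearly all of the T cell sum, which was 70.1 to 73.9 CPM at 15 d and 126 to 136 CPM intact in GS mice, and 72.6 to 86.6 CPM at 15 d and 100.5 to 102 CPM intact in WT mice. Cd4 fell at 15 d by 0.89 in GS and by 0.35 in WT mice. With Cd3e outside the table, the sum follows Cd4 and was not taken as a measure of T cells. Ighm rose at 15 d by 1.28 ± 0.24 in GS and 1.02 ± 0.24 in WT mice, and Trac, the T cell receptor α gene, had 0.493 and 0.450 CPM at 15 d and 0.239 and 0.291 CPM intact in GS mice, and 0.536 and 0.275 CPM at 15 d and 0.267 and 0.113 CPM intact in WT mice, not called in either (edgeR adjusted p = 0.226 in GS and 0.158 in WT). The part of any of these cell types in the members' values was not tested.

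The genes whose group means were most like those of Cd74, H2-Aa and H2-Ab1, by Pearson correlation over the 8 group means of log2 CPM among 15340 genes, were Sft2d2 (r = 0.9895), Plaat3 (0.9876), Msi1 (0.9866), Itgal (0.9846) and Cd82 (0.9842). For Ctss they were Tyrobp (0.9993), Man2b1 (0.9977), Col4a5 (0.9973), Cd300c2 (0.9972) and Btd (0.9961). Itgal, the leukocyte integrin chain of LFA-1, had 2.24 to 3.73 CPM at 15 d and 0.462 to 0.616 CPM intact in GS mice, and 2.34 to 3.17 CPM at 15 d and 0.469 to 0.748 CPM intact in WT mice. Tyrobp, the microglial and myeloid signalling adaptor, had 152 to 209 CPM at 15 d and 8.12 to 8.86 CPM intact in GS mice, and 75.8 to 153 CPM at 15 d and 9.14 to 9.18 CPM intact in WT mice. Sft2d2, Plaat3, Msi1 and Cd82 differed far less between stages than Cd74 did. Their GS means were 53.4, 32.9, 17.2 and 22.8 CPM intact and 72.6, 44.1, 26.5 and 36.3 CPM at 15 d. Their WT means were 53.9, 33.0, 16.8 and 21.5 CPM intact and 73.1, 47.4, 26.9 and 35.5 CPM at 15 d. The 8 means share their stages, so high values are common and no test was made.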

How the data were processed

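Per the labels' protocols, striatal RNA was isolated with an RNeasy kit and libraries were built with TruSeq RNA reagents. The authors deposited raw read counts per gene, whole numbers with no normalization, per the file headers. Per the submitters' processing notes FastQC 0.11.7 and the build mm10 were used. The sources used here give no aligner, no counter and no statement on strand. Columns headed NT were read as WT, the genotype left once the GS columns were matched. From the counts, edgeR 4.0.16 (R 4.3.3) was run with its default filter by group (18813 of 19457 genes kept), TMM scaling, 8 group means and no covariate. P-values were adjusted by the Benjamini-Hochberg method over all genes tested, and 95% intervals were taken from a t distribution with 8 residual and 6.389 prior degrees of freedom, and are approximate. The common biological coefficient of variation was 10.14%. DESeq2 1.42.0, limma-voom (limma 3.58.1), other scalings, filters and sample sets, a replicate block, marker covariates and each library left out were alternatives. The main edgeR fit, and none of the alternatives, was also run on simulated data for some of the comparisons. Nothing in the labels says which replicates share a litter or day, so p-values measure the spread between these samples, with 2 per group. All members may be named, any measured gene of the lists, at most 4 leading genes of a list per comparison, and the 5 genes most like Cd74 and the chains or Ctss. The members, lists and tests were chosen with earlier results of these data known. Gene positions and promoter sequences are those of RefSeq on GRCm38.p6.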

Additional observations from a re-analysis of the deposited data

How the results depend on the processing

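With 2 libraries per group, precision is set by the spread between replicates, and the genes under 1 CPM are also limited by depth. No called result of a member or other named gene changed sign. Of results not called, the sign turned in 91 member and 58 other settings. The members' calls were kept in 1253 of 1326 comparisons with an alternative and lost in 73, and results not called became called in 22 of 2561. The 6 rising members kept their calls at 15 d in both genotypes and at 3 d in GS mice under all 26 alternatives, with Cd74 at 15 d between 5.04 and 5.47 in GS and 5.16 and 6.73 in WT mice. At 6 h in GS mice the count of called members was 1, 2 with DESeq2, and 0 to 2 with each library left out. At 3 d in WT mice it was 8, 5 with limma-voom, 5 with only the groups of the contrast, and 4 to 8 with each library left out. From 6 h to 3 d in WT mice it was 7, and 3 to 8 with each library left out. From 3 d to 15 d in WT mice it was 4, and 0 with only the groups of the contrast. From 3 d to 15 d in GS mice it was 2, 4 with DESeq2, 4 with only the groups of the contrast, and 0 to 3 with each library left out. The cause of these shifts was not tested. Replicate numbers showed little sign of pairing the samples. The deviations of replicate 1 from its group mean, in log2 CPM over genes, correlated between groups at -0.0991 to 0.174 (median 0.0137, 28 pairs of groups). The 3 pairs above 0.1 were WT 3 d with GS 15 d (0.174), WT 3 d with WT 15 d (0.171) and GS 15 d with WT 15 d (0.147). The replicate block changed the call in 0 of 152 member results. With the 3 WT libraries highest in cortical markers left out, a setting chosen after seeing the data, the 15 d calls of the 6 rising members held in both genotypes.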

Other observations

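The library WT 15 d replicate 1 was set against each of the other 15 d libraries across the 15350 genes with a mean of at least 1 CPM, a description formed after its values were seen. In it, 13 genes were at least 2-fold above every other 15 d library. Of these 13, 2 were members, H2-Aa at 2.47 times and Cd74 at 2.04 times the highest of the others, and 5 belonged to the cortical marker list. The gene furthest above was Nr4a2, an orphan nuclear receptor, at 4.56 times the highest of the others. The other 3 libraries of 15 d had 3, 3 and 7 such genes, with 0 members among them. In the same library the myeloid gene Lyz2 was at 0.368 times and Tyrobp at 0.442 times the mean of the other 3, below the ratios of Ctss and Cd86.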
